A study of Mus musculus with 6 samples.

Results

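The lipid droplet and triglyceride storage genes described here are 10 genes chosen by symbol from the gene table of a mouse liver experiment: Plin2, Plin4, Plin5, Cideb, Cidec, Pnpla2, Dgat1, Dgat2, G0s2 and Cd36. All 10 were among the 17975 genes of the table, and all 10 had enough counts to be tested, out of 13805 tested genes. Liver RNA was sequenced from 3 WT mice and from 3 Hom mice, the homozygous hepatocyte NEK7 knockout made by crossing floxed Nek7 mice (NEK7 fl/fl) with Alb-Cre mice, in which the albumin promoter drives Cre in hepatocytes. Each library came from the snap-frozen liver of 1 mouse, and no treatment is named. The floxed and Alb-Cre mice were on a C57BL/6 background, and the study states in general that mice of both sexes entered its knockout experiments and gives 1 age range in weeks for its mice as a whole. The study also describes liver fibrosis in Hom mice at an age given in months. It refers to its source data and supplement for the sex of each animal, and the source data were not read here. The age and sex of the mice sequenced here, and whether the WT mice carried a floxed allele or Cre, are not given in the sources used here.

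The liver stores surplus fatty acids as triglyceride in lipid droplets, which are a core of neutral lipid inside a single layer of phospholipid coated with proteins. Fatty acids enter the cell in part through carriers such as CD36 and are joined to glycerol in a chain of reactions that the DGAT enzymes complete. Perilipins and CIDE proteins coat the droplet and regulate its size and its access to lipases, and ATGL, encoded by Pnpla2, starts to break the triglyceride down. Hepatocytes also hand droplet triglyceride to very-low-density lipoprotein (VLDL) for export.

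Libraries were nearly equal in size, with 19349356 to 19730154 estimated counts. Values are given as CPM, counts scaled to a common library total after TMM normalization, a correction for differences in library composition with factors of 0.806 to 0.924 for the WT group and 1.09 to 1.23 for the Hom group. The test was the quasi-likelihood F test of edgeR, and a gene was called at a Benjamini-Hochberg adjusted p under 0.05 over all tested genes. The values of single livers are always given in the order of replicates 1, 2 and 3. Nek7 had 1127, 1077 and 1036 counts in the WT livers against 310, 439 and 387 in the Hom livers, or 65.2 ± 3.37 against 16.4 ± 1.83 CPM (SD, n = 3 mice each, log2 fold change −1.99, SE 0.10, adjusted p = 1.59e-04). Albumin, a defining hepatocyte gene, had 960702 counts or more in every liver. It fell from 114110 ± 15460 to 47649 ± 8067 CPM (SD, n = 3 mice each, log2 fold change −1.26, adjusted p = 0.00991). Hom replicate 1 had 0 counts of the Y-linked genes Ddx3y and Kdm5d, 4 of Eif2s3y and 149 of Uty, against at least 630, 243, 582 and 464 in the other livers. WT replicate 1 stood apart from WT replicates 2 and 3 in the female-biased liver gene Cyp2b9, with 1881 counts against 17 and 8.

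Storage genes moved in both directions in Hom livers. Of the 10 genes, 6 fell (Plin2, Plin4, Plin5, Cideb, Dgat2 and G0s2), 2 rose (Cd36 and Pnpla2) and 2 did not pass the test (Cidec and Dgat1). Over all tested genes, 20.1% were called lower and 21.5% higher, so the count of higher genes was near the background share. Their median on the log2 scale was −0.71, beside −0.0018 over all tested genes. The 3 Hom livers lay under the 3 WT livers without overlap for the same 6 genes and above them for the same 2, whereas 27.0% of all tested genes lay lower and 28.7% higher without overlap. Because whole liver was sequenced, fewer cells of a type and less RNA per cell cannot be told apart. The hepatocyte markers moved with the lower genes: 11 of 19 tested fell and 0 rose, with a median of −0.67, and their summed level was 176451 to 238479 TPM in WT livers and 163105 to 198186 TPM in Hom livers. With library size alone in place of TMM, 7 of these markers fell and 2 rose, with a median of −0.21. The part of hepatocyte share or state in these differences was not tested.

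**Figure D1:**
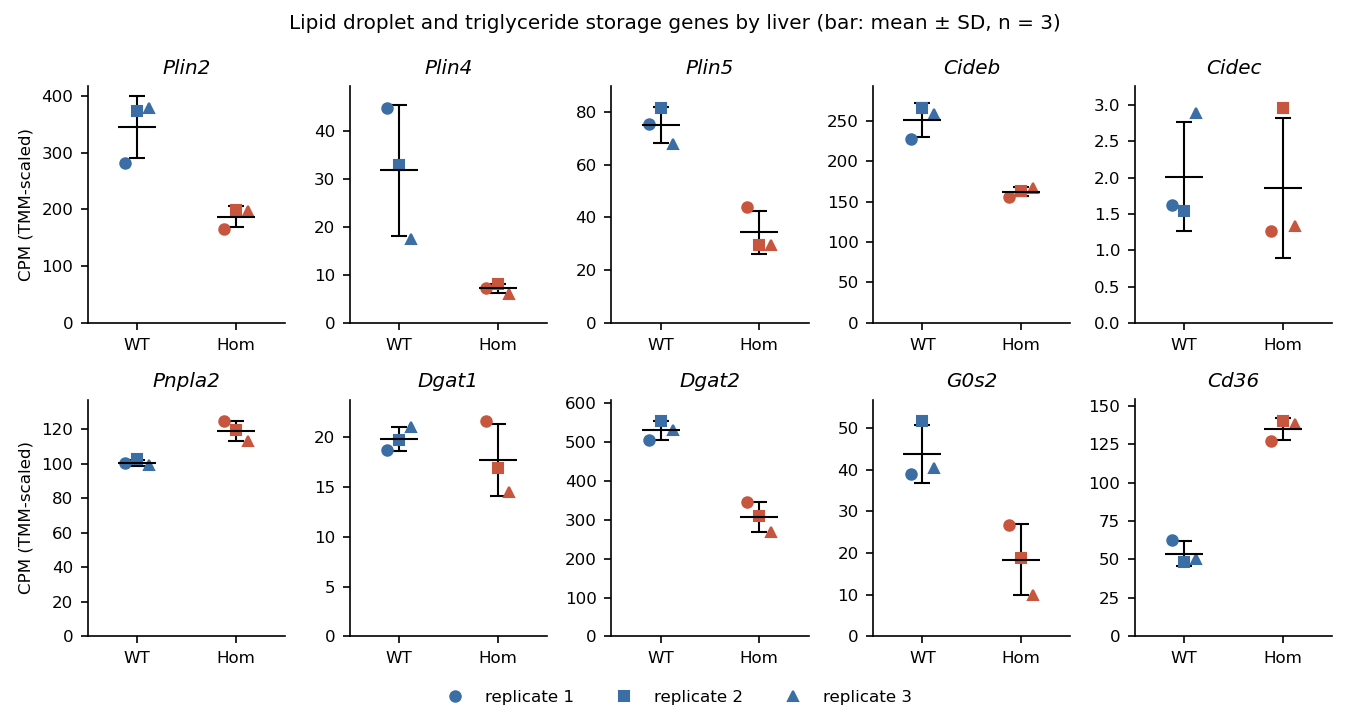
CPM (TMM-scaled, linear axes from 0) of the 10 storage genes in each of 3 WT and 3 Hom livers, with a symbol for each replicate and bars for the mean ± SD. Plin2, Plin4, Plin5, Cideb, Dgat2 and G0s2 lie lower in all 3 Hom livers, Cd36 and Pnpla2 lie higher, and the groups of Cidec and Dgat1 overlap.

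Upstream sequence is shown for the 3 storage genes whose RefSeq promoter (GRCm38.p6) holds AGGTCA, the core half-site recognised by many nuclear receptors, because these genes moved in both directions. Each line gives the 250 bases before an annotated start, 5′ to 3′ on the strand of the gene, and capitals mark AGGTCA or its reverse complement.
Plin2 (chr4:86670060-86670309, minus strand): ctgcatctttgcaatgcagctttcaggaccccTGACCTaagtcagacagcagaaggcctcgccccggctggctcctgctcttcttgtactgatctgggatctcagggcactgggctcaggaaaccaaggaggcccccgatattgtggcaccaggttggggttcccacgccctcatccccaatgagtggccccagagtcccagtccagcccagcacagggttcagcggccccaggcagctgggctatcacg
Plin5 (chr17:56117549-56117798, minus strand): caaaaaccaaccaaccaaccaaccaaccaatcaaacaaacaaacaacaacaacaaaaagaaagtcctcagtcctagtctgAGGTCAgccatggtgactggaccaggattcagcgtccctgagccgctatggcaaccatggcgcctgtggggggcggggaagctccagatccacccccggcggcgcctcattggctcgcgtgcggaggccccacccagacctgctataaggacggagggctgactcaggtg
Cd36 (chr5:17835897-17836146, minus strand): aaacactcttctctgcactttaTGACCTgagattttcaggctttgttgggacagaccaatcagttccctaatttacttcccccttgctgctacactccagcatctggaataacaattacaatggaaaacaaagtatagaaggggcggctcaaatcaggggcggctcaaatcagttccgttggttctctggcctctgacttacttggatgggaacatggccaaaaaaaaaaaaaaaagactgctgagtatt
The match began 218 bases before the start in Plin2, 170 before it in Plin5 and 228 before it in Cd36. A second annotated start of Plin5 had its match 14 bases after the start. Plin2 and Plin5 fell and Cd36 rose, so the half-site stood in genes of both directions. A promoter entry was found for 8 of the 10 genes, all but Dgat1 and Dgat2. Among 32851 mouse promoter windows, which run from 250 bases before a start to 50 after it, 16.26% hold AGGTCA on either strand. Of the 10 windows of the 8 genes, 4 hold it. A match is a string of letters and not a measured binding site.

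Perilipins coat the droplet surface, and the 3 among the storage genes all fell. Plin2, the perilipin found on droplets in most cell types, was at 281.2, 372.5 and 379.2 CPM in the WT livers against 165.5, 198.8 and 197.5 CPM in the Hom livers. Every Hom liver was under the lowest WT liver, and the mean went from 344 ± 54.8 to 187 ± 18.8 CPM (SD, n = 3 mice each), or 54.4% of WT (log2 fold change −0.88, SE 0.15, adjusted p = 0.00450). Plin2 (NCBI Gene 11520) is at chr4:86648386-86670060, minus strand (GRCm38; GENCODE M21 gives all gene positions here).

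Plin5 coats droplets of tissues that burn much fat and tethers them to mitochondria. It was at 75.3, 81.63 and 67.84 CPM in the WT livers and at 43.87, 29.66 and 29.59 CPM in the Hom livers. Again the groups did not overlap, although Hom replicate 1 was higher than the other Hom livers. The mean fell from 74.9 ± 6.90 to 34.4 ± 8.22 CPM (SD, n = 3 mice each, log2 fold change −1.12, SE 0.17, adjusted p = 0.00296).

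Plin4, a perilipin best known from fat tissue and muscle, had the largest fall of the 10 genes. Its level was 44.93, 32.96 and 17.5 CPM in the WT livers and 7.32, 8.116 and 6.117 CPM in the Hom livers. The WT livers were widely spread (coefficient of variation 43.3%) and the Hom livers were close together (14.0%). The mean fell from 31.8 ± 13.8 to 7.18 ± 1.01 CPM (SD, n = 3 mice each), or 22.6% of WT (log2 fold change −2.15, SE 0.33, adjusted p = 0.00319). Plin4 (NCBI Gene 57435, 56100591 to 56109803) and Plin5 (NCBI Gene 66968, 56111601 to 56117596) are neighbours on the minus strand of chromosome 17, with 1797 bases between them. Plin4 shares 17 exon bases with Hdgfl2 on the opposite strand, which had 417 to 679 counts per liver.

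Fat cells also express Plin4, and several of their defining genes were at or near 0. Plin1, the perilipin of fat cells, had 0 to 2 counts per liver, Adipoq 0 to 5, Lep 0 to 1 and Retn 0 to 2. Others of the list were not: Cfd had 0, 9 and 26 counts in WT against 0, 2 and 2 in Hom livers, Cidea 1 to 36 per liver, and Lipe 178 to 393. Of 10 adipocyte markers, 4 were tested, of which Fabp4 and Slc2a4 rose and 0 fell, and the summed level of all 10 was 20.0 to 30.1 TPM in WT and 66.0 to 85.3 TPM in Hom livers. The part of fat cells in the Plin4 difference was not tested. The list shares Plin1, Cidea, Lipe and Fabp4 with other lists used here.

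Levels of different genes can be set side by side per length as TPM, a unit in which each liver sums to the same total. The 5 perilipins together came to 368 ± 4.05 TPM in the WT group and 330 ± 35.1 TPM in the Hom group (SD, n = 3 mice each). Plin2 held 75.0 ± 3.35% of that sum in WT and 70.7 ± 4.79% in Hom livers, and Plin5 held 15.4 ± 2.35% and 12.3 ± 3.53%. Plin2 was thus the most abundant perilipin in every liver, and its share overlapped between groups. Plin3, a perilipin that moves between the cytosol and small droplets and is not among the 10 genes, went from 7.62 ± 0.746% to 16.2 ± 1.19% of the sum, with no overlap. Its own difference did not pass the test (41.3 against 50.8 CPM, log2 fold change 0.30, SE 0.10, adjusted p = 0.0548). Plin4 held 2.03 ± 1.07% in WT and 0.793 ± 0.109% in Hom livers, and Plin1 held at most 0.0378% in any liver. The perilipin shares were chosen after their values were seen and are given as a description.

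**Figure D2:**
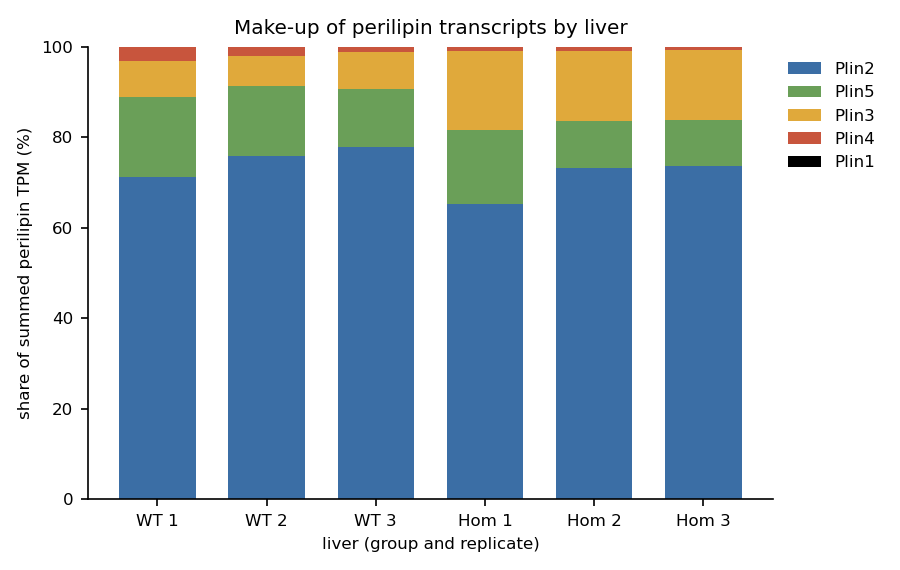
Share (%) of the summed TPM of the 5 perilipin genes held by each gene, as stacked bars for each of the 6 livers. Plin2 takes the largest share in every liver, and the Plin3 share is larger in each Hom liver (15.46 to 17.58%) than in any WT liver (6.775 to 8.192%).

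The CIDE genes, whose proteins sit where droplets touch and let lipid pass between them, differed widely in level. Cideb, the member of hepatocytes that also takes part in VLDL lipidation, was at 226.7, 266.2 and 258.7 CPM in the WT livers against 155.9, 163.2 and 167.0 CPM in the Hom livers. The groups were narrow and apart, with 251 ± 20.9 CPM in WT and 162 ± 5.66 CPM in Hom livers (SD, n = 3 mice each, 64.7% of WT, log2 fold change −0.63, SE 0.10, adjusted p = 0.00324). Cideb (NCBI Gene 12684) is at chr14:55754050-55758458, minus strand. It shares 1136 of its 1488 exon bases with Nop9 on the opposite strand, which had 427 to 603 counts per liver. The strandedness of the libraries is not stated, so reads of the 2 genes cannot be told apart over that stretch.

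Cidec, the member known from fat cells and from livers loaded with fat, was close to the lower limit of the data. It had 29, 24 and 47 counts in the WT livers and 27, 72 and 31 in the Hom livers, or 2.01 ± 0.756 and 1.85 ± 0.964 CPM (SD, n = 3 mice each). The highest value was that of Hom replicate 2 and the groups overlapped (log2 fold change −0.11, SE 0.44, adjusted p = 0.851). The sign of this difference turned with the scaling and with the livers left out, from −0.63 to 0.23 over the 6 fits without 1 liver, so no direction was detectable in these livers. Cidec (NCBI Gene 14311) is at chr6:113424634-113435760, minus strand. In TPM, Cideb was at 319 ± 8.83 and Cidec at 1.70 ± 0.586 in WT livers (SD, n = 3 mice each).

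The DGAT enzymes attach the last fatty acid to diacylglycerol, DGAT2 mainly with newly made fatty acids and DGAT1 mainly with fatty acids from outside the cell. Dgat2 was at 507.0, 554.8 and 530.5 CPM in WT and at 346.3, 309.6 and 269.0 CPM in Hom livers. No Hom liver reached the lowest WT liver, and the mean fell from 531 ± 23.9 to 308 ± 38.6 CPM (SD, n = 3 mice each), or 58.1% of WT (log2 fold change −0.78, SE 0.13, adjusted p = 0.00366). Dgat2 (NCBI Gene 67800) is at chr7:99153658-99182719, minus strand.

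Dgat1 was at 18.7, 19.69 and 21.06 CPM in WT and at 21.63, 16.89 and 14.52 CPM in Hom livers. Hom replicate 1 was above every WT liver and Hom replicates 2 and 3 were below them, so that the groups overlapped (19.8 ± 1.19 against 17.7 ± 3.62 CPM, SD, n = 3 mice each, log2 fold change −0.16, SE 0.15, adjusted p = 0.421). Dgat1 (NCBI Gene 13350) is at chr15:76502015-76511953, minus strand. The ratio of Dgat2 to Dgat1 TPM within a liver, which the scaling of libraries does not touch, was 20.5, 21.54 and 18.3 in WT and 12.13, 13.82 and 14.31 in Hom livers. This was a difference of −0.58 on the log2 scale (SE 0.10) with no overlap. The exact two-sided permutation test gave p = 0.1, the smallest that 3 mice against 3 allow, and 0.2 after Benjamini-Hochberg adjustment over the 6 pairs of genes compared.

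Pnpla2 encodes ATGL, the lipase of the first step of triglyceride breakdown, and G0s2 encodes a small protein that inhibits ATGL. G0s2 was at 39.02, 51.68 and 40.34 CPM in the WT livers against 26.72, 18.79 and 9.821 CPM in the Hom livers. The Hom livers were widely spread (coefficient of variation 45.8%) but all under the WT livers, and the mean fell from 43.7 ± 6.96 to 18.4 ± 8.45 CPM (SD, n = 3 mice each), or 42.2% of WT (log2 fold change −1.24, SE 0.33, adjusted p = 0.0227). This call was lost without WT replicate 2 (adjusted p = 0.0764) and without Hom replicate 2 (adjusted p = 0.0655). G0s2 (NCBI Gene 14373) is a short gene at chr1:193272161-193273217, minus strand, that lies within Lamb3 on the opposite strand and shares 0 exon bases with it.

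Pnpla2 was at 100.3, 102.5 and 99.15 CPM in WT and at 124.7, 119.3 and 113.2 CPM in Hom livers. The livers of each group were close together and the groups did not overlap, but the difference was small, from 101 ± 1.68 to 119 ± 5.74 CPM (SD, n = 3 mice each, 1.18-fold, log2 fold change 0.24, SE 0.08, adjusted p = 0.0377). The call was lost in each of the 6 fits without 1 liver (adjusted p up to 0.122) and with the replicate number as a block (0.0809). A correction for gene length gave a log2 fold change of 0.057 (adjusted p = 0.595). Pnpla2 (NCBI Gene 66853) is at chr7:141455198-141460743, plus strand. The ratio of G0s2 to Pnpla2 TPM within a liver was 1.267, 1.643 and 1.325 in WT and 0.6976, 0.5129 and 0.2824 in Hom livers. It was above 1 in each WT liver and below 1 in each Hom liver, a difference of −1.59 on the log2 scale (SE 0.40, exact permutation p = 0.1, adjusted 0.2).

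Cd36 encodes a surface carrier of long-chain fatty acids that hepatocytes, macrophages and endothelial cells can all express, and it had the largest rise. It was at 62.96, 48.41 and 50.28 CPM in the WT livers against 126.8, 140.0 and 137.9 CPM in the Hom livers. Each Hom liver was more than 2 times the highest WT liver, and the mean went from 53.9 ± 7.92 to 135 ± 7.09 CPM (SD, n = 3 mice each, 2.50-fold, log2 fold change 1.32, SE 0.12, adjusted p = 5.35e-04). Cd36 (NCBI Gene 12491) is at chr5:17781690-17888801, minus strand. Slc27a5, the liver's fatty acid and bile acid activating enzyme of the FATP family, fell over the same livers (895 against 425 CPM, log2 fold change −1.07, SE 0.11, adjusted p = 8.62e-04). The ratio of Cd36 to Slc27a5 TPM was 0.06304, 0.04302 and 0.04609 in WT and 0.2417, 0.2687 and 0.2842 in Hom livers, a log2 difference of 2.40 (SE 0.18, exact permutation p = 0.1, adjusted 0.2).

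Markers of several other cell types also differed between the groups, and their counts stand beside 20.1% of all tested genes lower and 21.5% higher. Of 8 lipid-associated macrophage markers, 5 rose and 0 fell, and their summed level was 95.9 to 195 TPM in WT and 1298 to 1649 TPM in Hom livers, and 3 of the 8 (Spp1, Lpl and Fabp5) also stand in other lists used here. Spp1, a cholangiocyte marker too, carried most of that sum in each Hom liver, at 28.96 to 68.30 TPM in WT and 773 to 1208 TPM in Hom livers, while Trem2 was at 0.39 to 1.5 and 9.74 to 14.54 TPM. General macrophage markers were mixed, with 2 of 10 higher and 3 lower, and endothelial markers fell in 5 of 10 with 0 higher. The summed level of the general macrophage markers was 190 to 548 TPM in WT and 451 to 674 TPM in Hom livers. WT replicate 1 was the highest WT liver for each of these macrophage markers and for Cd36. All 10 cholangiocyte markers rose (median log2 fold change 3.07), and 5 of 10 stellate cell markers rose while 1 fell. With library size alone, macrophage markers gave 3 higher and 2 lower, endothelial markers 2 higher and 3 lower, and stellate cell markers 8 higher and 1 lower. The part of these cells in the Cd36 difference was not tested.

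**Figure D3:**
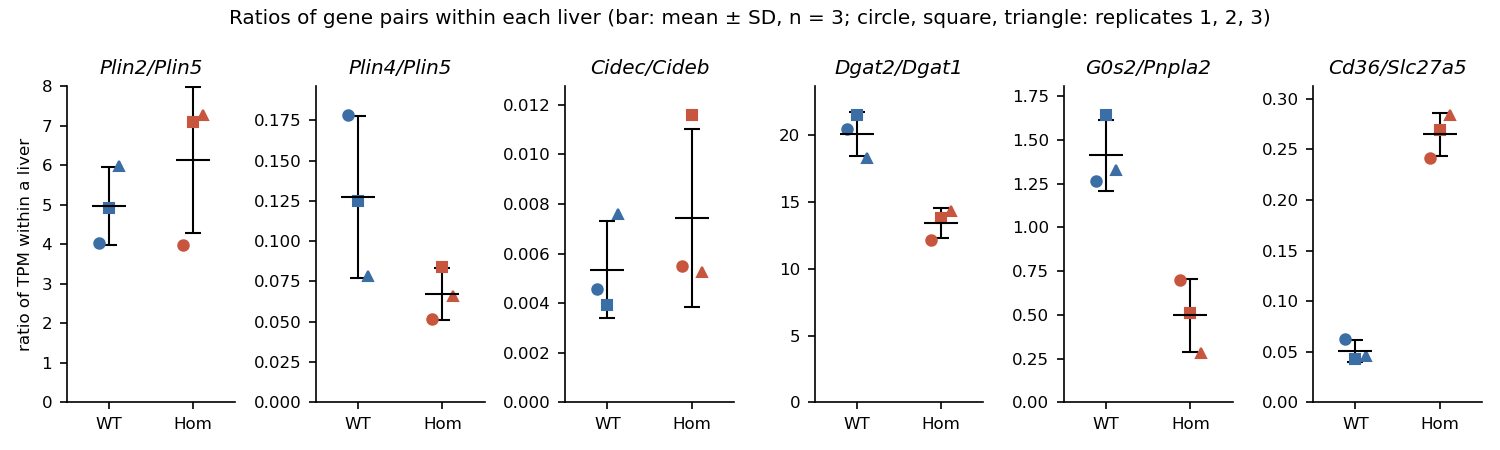
Ratio of the TPM values of 6 gene pairs within each liver (linear axes from 0), for 3 WT and 3 Hom livers, with bars for the mean ± SD. Dgat2/Dgat1 and G0s2/Pnpla2 are lower and Cd36/Slc27a5 is higher in every Hom liver, while the groups overlap in the other 3 pairs.

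The other 3 ratios overlapped between groups. The log2 difference was 0.27 (SE 0.33, exact permutation p = 0.6) for Plin2 to Plin5, −0.87 (SE 0.40, p = 0.2 in the same exact test) for Plin4 to Plin5 and 0.43 (SE 0.47, p = 0.5 in the same exact test) for Cidec to Cideb. With 3 mice against 3 this test cannot pass 0.05, and Plin2 to Plin4 was not among the pairs compared.

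How the libraries are scaled bears on the smaller differences. With library size alone and no TMM factor, the median log2 fold change of all tested genes moved up by 0.45. Of all tested genes, 642 were then called lower and 6574 higher. On that scale Plin4, Plin5 and Dgat2 still fell and Cd36 and Pnpla2 still rose. Plin2 gave −0.41 (adjusted p = 0.0566), G0s2 −0.80 (adjusted p = 0.0533) and Cideb −0.17 (adjusted p = 0.227), and Dgat1 turned from −0.16 to 0.28 (adjusted p = 0.118). The deposited TPM values carry no composition correction either. In TPM, Cideb was at 319 ± 8.83 in WT and 319 ± 32.0 in Hom livers, Dgat2 at 347 ± 25.8 and 309 ± 28.5, and Pnpla2 at 56.2 ± 6.24 and 102 ± 5.46 (SD, n = 3 mice each). The summed TPM of the 10 genes ranged from 1143 to 1241 in WT and from 1133 to 1284 in Hom livers, which overlap. Upper-quartile scaling and DESeq2 gave 6 lower and 2 higher, as TMM did. Of all tested genes, upper-quartile scaling called 2060 lower and 3477 higher, and DESeq2 called 2863 lower and 3076 higher.

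**Figure D4:**
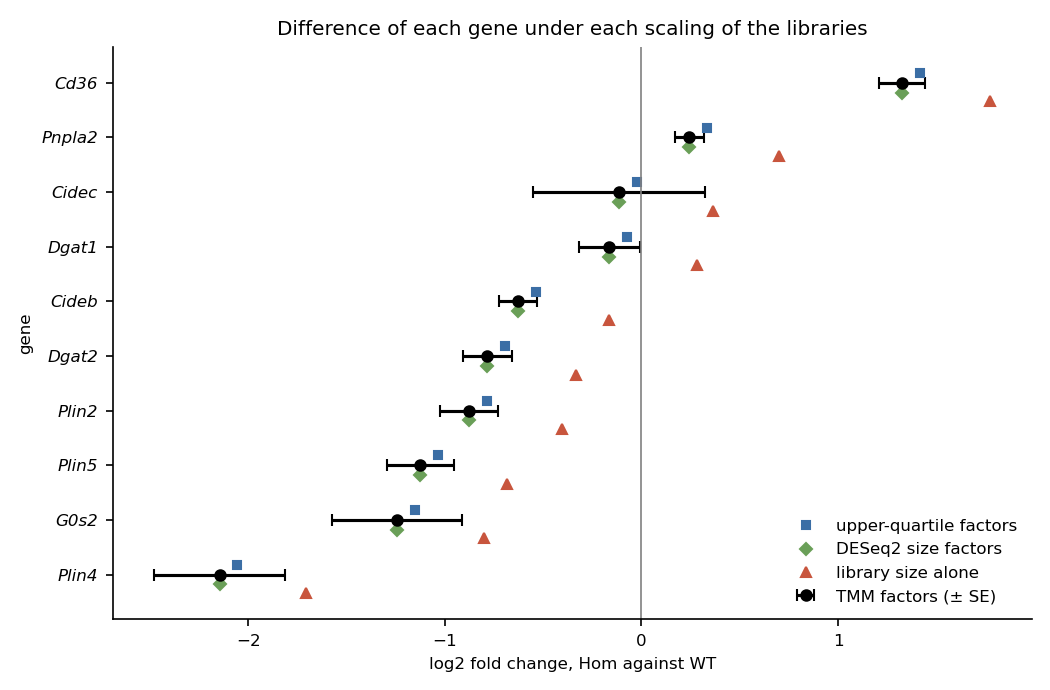
Log2 fold change (Hom against WT) of each storage gene with TMM factors (circles, ± SE), upper-quartile factors (squares), DESeq2 size factors (diamonds) and library size alone (triangles). Library size alone moves every gene to the right, and Cidec and Dgat1 cross 0.

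The result without Hom replicate 1, the liver with almost no Y-linked counts, was computed for each gene. The log2 fold change was then −0.80 for Plin2, −2.16 for Plin4, −1.34 for Plin5, −0.60 for Cideb, −0.88 for Dgat2, −1.61 for G0s2 and 1.37 for Cd36, all past the test. Pnpla2 gave 0.21 (adjusted p = 0.0739). Over the 6 fits without 1 liver each, the calls of Plin2, Plin4, Plin5, Cideb, Dgat2 and Cd36 held in all 6, with adjusted p up to 0.0200. Male-biased liver genes fell in 6 of 8, with 0 higher, and female-biased genes rose in 2 of 4 tested. The summed male-biased level was 3778 to 16545 TPM in WT and 1230 to 20929 TPM in Hom livers, most of it Mup20 (2710 to 13729 and 1139 to 20438 TPM). Hsd3b5, another male-biased gene, had 730, 3476 and 3638 counts in WT livers and 0 in each Hom liver. Of the 4 sex-chromosome genes, 0 passed the test. Hom replicate 1 stood apart from Hom replicates 2 and 3 in these genes, so this test cannot tell whether the groups differ in sex.

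Genes around the 10 were taken from 6 written lists. Their counts stand beside 20.1% of all tested genes lower and 21.5% higher. The counts of higher genes in glycerolipid synthesis and among the lipid regulators were near that share. Among 14 tested droplet proteins outside the 10 genes, 8 fell and 0 rose (median log2 fold change −0.41), with 1 higher without WT replicate 3. The summed level of this list went the other way without overlap, at 1720 to 2086 TPM in WT and 2117 to 2207 TPM in Hom livers. Fitm1, which helps to form droplets, went from 29.6 ± 14.1 to 6.51 ± 4.47 CPM (log2 fold change −2.17, adjusted p = 0.0356), a call that held in 2 of the 6 fits without 1 liver. Hsd17b11, a droplet dehydrogenase, went from 172 ± 13.1 to 83.4 ± 15.8 CPM, and Ldah, a droplet hydrolase, from 48.9 ± 3.24 to 27.2 ± 3.81 CPM (log2 fold changes −1.05 and −0.85).

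Glycerolipid synthesis upstream of the DGAT step was mixed, with 7 of 15 genes lower and 3 higher (median −0.42). Lpin1, a phosphatidic acid phosphatase and coactivator, had 9411, 15145 and 11788 counts in WT and 1032, 3119 and 1375 in Hom livers, the deepest fall among the tested genes of this list (log2 fold change −3.23, SE 0.43, adjusted p = 0.00188). Mogat1 had too few counts to be tested (4, 10 and 22 in WT against 0, 2 and 0 in Hom livers). Lpin2, a relative of Lpin1, went from 441 ± 46.1 to 186 ± 57.7 CPM, and Gpd1, which makes glycerol 3-phosphate, from 515 ± 19.0 to 276 ± 24.7 CPM (log2 fold changes −1.24 and −0.90). Mogat2, which makes diacylglycerol from monoacylglycerol, had 1, 2 and 4 counts in WT and 118, 110 and 102 in Hom livers (fitted log2 fold change 5.03, adjusted p = 4.32e-04, a size that rests on few WT counts). Gpat3, an acyltransferase of the first step, went from 3.50 ± 1.56 to 12.6 ± 1.76 CPM and Agpat1, of the next step, from 15.0 ± 2.55 to 21.1 ± 1.58 CPM (log2 fold changes 1.84 and 0.49), the latter call holding in 1 of the 6 fits without 1 liver.

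Lipolysis had the lowest median of the 6 lists, at −1.10, with 7 of 12 genes lower and 0 higher (1 higher without WT replicate 1). The carboxylesterases Ces3b, Ces3a and Ces1d, which act on triglyceride in the endoplasmic reticulum, led it. Ces3a had 26799, 36991 and 40709 counts in WT and 1882, 10699 and 12272 in Hom livers (log2 fold change −2.59, SE 0.62, adjusted p = 0.0159). The log2 fold change was −2.73 for Ces3b and −2.48 for Ces1d, and the split of reads among these closely related genes is uncertain. Abhd5, the coactivator of ATGL, and Lipe, the hormone-sensitive lipase, did not pass the test (log2 fold changes −0.04 and 0.17, with adjusted p of 0.840 and 0.538), and both were picked from the list for their link to ATGL.

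Fatty acid uptake and activation moved both ways, with 8 of 15 genes lower and 5 higher (median −0.72). Fabp1, the main fatty acid binding protein of hepatocytes, went from 2378 ± 482 to 476 ± 156 CPM, and Acsl1, the main acyl-CoA synthetase of liver, from 1129 ± 304 to 273 ± 47.4 CPM (log2 fold changes −2.32 and −2.05). Fabp2, best known from intestine, had a log2 fold change of −1.83. Like Cd36, Lpl, the lipoprotein lipase, rose, from 40.3 ± 4.56 to 203 ± 16.2 CPM (log2 fold change 2.33, SE 0.12, adjusted p = 1.37e-04). Fabp4, found in fat cells, macrophages and capillaries, and Acsl4, which prefers arachidonic acid, rose by 1.51 and 0.82 on the log2 scale.

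VLDL export had 4 of 7 genes lower and 0 higher (median −0.44), with Apoc3, an apolipoprotein that slows triglyceride clearance, at −0.78, Sar1b, a coat protein of secretory vesicles, at −0.71 and Tmem41b, a lipid scramblase, at −0.53. Of 12 lipid regulators, 8 fell and 2 rose (median −0.55), but only 5 fell without WT replicate 3, 4 without Hom replicate 2 and 4 without Hom replicate 3, and 1 rose without WT replicate 2 or 3. Ppara, the fatty acid sensor that drives genes of fat use in liver, went from 237 ± 46.4 to 96.0 ± 11.7 CPM (log2 fold change −1.30, SE 0.16, adjusted p = 0.00159). Pparg, the receptor that drives fat storage genes, had 177, 93 and 130 counts in WT and 360, 508 and 332 in Hom livers (log2 fold change 1.12, SE 0.22, adjusted p = 0.00755). Srebf1, which encodes the lipogenic factor SREBP1, went from 153 ± 23.5 to 245 ± 57.4 CPM and Mlxipl, which encodes the glucose-sensing factor ChREBP, from 454 ± 29.2 to 219 ± 40.8 CPM (log2 fold changes 0.68 and −1.05). Ppard, a further receptor of this family, had a log2 fold change of −1.15. The Srebf1 call held in 4 of the 6 fits without 1 liver and the Ppard call in 3.

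With library size alone the lists moved up like all genes, of which 642 were then called lower and 6574 higher. The medians of droplet proteins, glycerolipid synthesis and VLDL export were then 0.04, 0.03 and 0.02, with 1, 3 and 0 genes lower and 3, 6 and 0 higher. Lipolysis kept a median of −0.63 with 6 lower and 2 higher, fatty acid uptake and activation −0.25 with 6 and 5, and the lipid regulators −0.09 with 2 and 2. The sign of the median of the first 3 lists thus changed with the scaling.

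**Figure D5:**
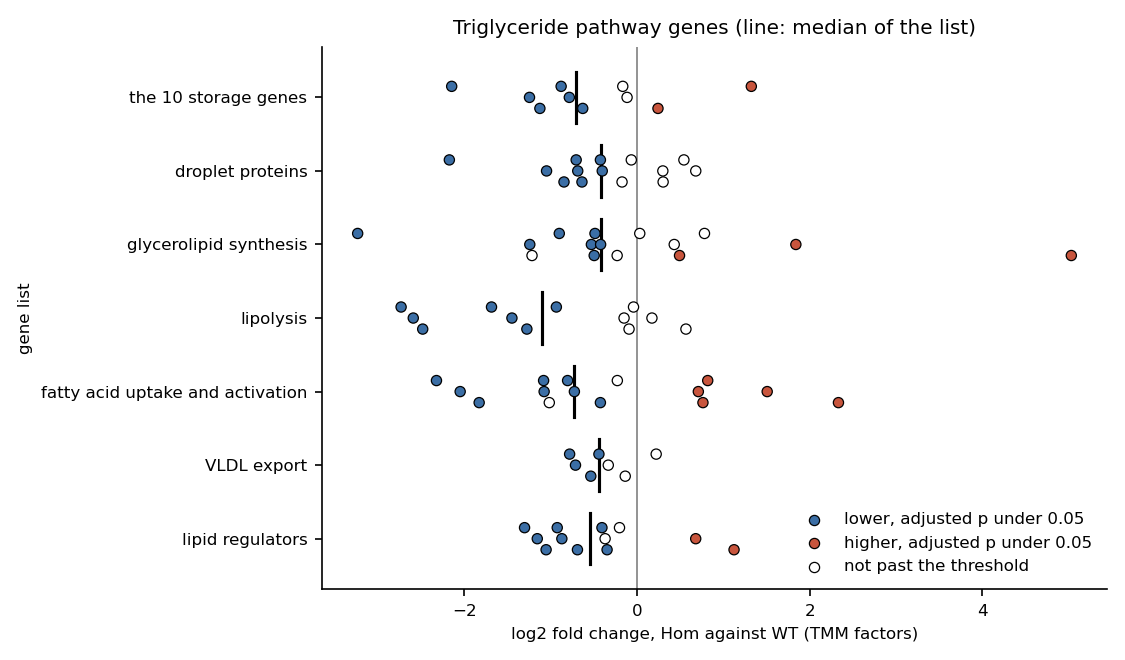
Log2 fold change (Hom against WT, TMM factors) of each tested gene in the 10 storage genes and in 6 lists of related genes, with blue for lower and red for higher at an adjusted p under 0.05, white for genes not past the threshold and a line for the median. Lipolysis has the lowest median (−1.10), and Mogat2 at 5.03 and Lpin1 at −3.23 are the extremes.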

How the data were processed

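RNA of 6 mouse livers (3 WT, 3 Hom, 1 liver per mouse per the study's methods) was sequenced on the DNBSEQ platform. The authors deposited 1 table with estimated counts (expected counts, not scaled, 65.9% of them whole), FPKM and TPM values per liver. The authors' FPKM values are divided by library size and gene length, and their TPM values add up to one fixed total per liver. The submitters' processing notes name HISAT2 2.0.4, Bowtie2 2.2.5, RSEM 1.2.12 and mm9, with no roles given. The strandedness of the libraries is not given in the sources used here. The deposited group means carry crossed names and were not used, and the direction was taken from the single livers.

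Rounded counts entered edgeR 4.0.16 under R 4.3.3 (filterByExpr, TMM, glmQLFit and glmQLFTest, Benjamini-Hochberg over 13805 genes, SE from the log2 fold change and F statistic). TPM ratios within a liver were compared with an exact two-sided permutation test, adjusted over 6 pairs. The procedure was tested on simulated data. The named genes were Nek7, the 10 storage genes and, in each related list, up to 3 with the largest and up to 3 with the smallest log2 fold change among called genes with a mean of at least 1 CPM. Plin1, Plin3, Slc27a5, Abhd5, Lipe, Slc2a4, Spp1, Trem2, Fabp5, Cfd, Cidea, Adipoq, Lep, Retn, Mogat1, Mup20, Hsd3b5, Alb and Cyp2b9 were named outside that rule. The 10 genes and all lists were chosen with earlier results of these data known. Positions are from GENCODE M21 on GRCm38, which is not the build named by the submitters, and promoters are from RefSeq.

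Alternatives were DESeq2 1.42.0, library size alone or upper-quartile factors, a filter of 10 counts or more per liver, no filter, blocking on the replicate number, a loess correction for gene length (from the deposited counts and FPKM, for 98.3% of tested genes), a minimum absolute log2 difference of 1, and each liver left out. Chi-square tests of libraries within a group (23.8 or more per degree of freedom) gave no sign of a repeated library.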

Additional observations from a re-analysis of the deposited data

How the results depend on the processing

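The calls of Plin4, Plin5, Dgat2 and Cd36 held under each scaling, filter, length correction and block and each left-out liver, and those of Plin2 and Cideb under all but library size alone. Library size alone gave 642 genes lower and 6574 higher, beside 2780 and 2974, with 3 storage genes lower, and turned Cidec to 0.36 and Dgat1 to 0.28. The length correction moved the median of all genes by −0.18 and gave 4434 genes lower and 1 storage gene higher. Pnpla2 was then at 0.057 and not called (adjusted p = 0.595). With the replicate block added to this correction, 1884 genes were higher and 1 storage gene was higher, and Pnpla2 was at 0.056 (adjusted p = 0.657). A length correction centred on its median gene, chosen after seeing the data, moved that median by 0.03, called Pnpla2 (0.27, adjusted p = 0.0276) and turned Cidec to 0.0047. With the replicate block added to the centred correction, 1 storage gene was higher (Pnpla2 adjusted p = 0.0626). No filter gave 1 storage gene higher. A minimum absolute log2 difference of 1 left 575 genes lower and 1825 higher, with 3 storage genes lower (Plin4, Plin5 and G0s2) and 1 higher. Leaving out each liver gave 1767 to 2750 genes lower, 1 to 1 storage genes higher, and −0.63 to 0.23 for Cidec. Without Hom replicate 2, 1829 genes were lower, and without Hom replicate 3, 1767.

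Same-numbered WT and Hom livers are different mice, and nothing in the sources used here says that they are paired. Their deviations from the group means correlated at −0.05 to 0.0073. A low correlation cannot decide whether the mice were matched. The replicate block gave 2214 genes lower, 2383 higher, 6 storage genes lower and 1 higher. For the 10 storage genes, 138 of 160 alternative values kept direction and call, 16 lost the call and 6 changed sign (Cidec and Dgat1). Counts were few for Cidec, at 24 to 72 per liver, and for Mogat2 in WT livers. Cidec was also widely spread between livers (coefficient of variation 37.5% in WT and 52.0% in Hom). With 3 mice against 3, no exact test could pass 0.05, so the ratios rest on their sizes and spread.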

Other observations

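Other short motifs were counted in the promoter windows of the 8 storage genes with an entry, on both strands, and are given as values with no test. CCAAT was in Cd36, Plin2, Plin4 and Plin5, or 4 of the 10 windows of the 8 genes, and in 37.41% of all windows. GGGCGG was in 6 of the 8 genes, or 7 of their 10 windows, and in 35.66% of all windows. CACCTG was in G0s2, Plin5 and Pnpla2, or 4 of the 10 windows (20.21% of all windows), CACGTG in Plin2 (7.15%) and TATAAA in Cideb (13.62%). The direct repeat of AGGTCA with 1 base between, the usual form bound by PPAR and RXR pairs, was in 0 of the 8 genes and in 0.04% of all windows. No match says only that these letters are not in these windows.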
